A study of Homo sapiens with 28 samples.

Results

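The basic helix-loop-helix (bHLH) partners, inhibitors and relatives of TWIST1 were examined as 10 genes: the E proteins TCF3, TCF4 and TCF12, the inhibitors ID1, ID2, ID3 and ID4, and the Twist-family factors TWIST2, HAND1 and HAND2. They were picked out of the tables by gene symbol, and all 10 had a row among the 62703 genes of both count tables. In MDST8 cells 3 of the 4 ID genes were measurable, and ID1 and ID3 fell by close to 3 on the log2 scale in a single TWIST1 knockout clone (TG3_6), whereas the E proteins lay within 0.26 log2 of WT in every clone. In LoVo cells ID1 was higher and ID2, TCF4, TCF12 and HAND1 were lower in the libraries labelled TWIST1 shRNA.

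TWIST1 binds DNA as a dimer of bHLH proteins, usually with an E protein, at the E-box CANNTG. E proteins are made in most cell types and serve as the common partners of tissue-restricted bHLH factors. ID proteins carry the helix-loop-helix but lack the basic region that contacts DNA, so an E protein held by an ID protein cannot bind an E-box, and the balance of ID to E proteins influences which dimers TWIST1 can form. ID genes are classical targets of BMP signalling through SMAD1 and SMAD5.

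RNA-seq covered 24 libraries in 8 groups of 3. MDST8, a human colorectal cancer line of the mesenchymal CMS4 subtype, gave wild-type (WT) cells and the TWIST1 knockout clones TG1_1, TG2_2, TG3_2, TG3_5 and TG3_6, made by electroporation of CRISPR-Cas9, each of them derived from a single cell and hence 1 clone. LoVo, a human colorectal cancer line of epithelial character, gave libraries labelled TWIST1 shRNA (a lentiviral knockdown) and shRNA control, and TWIST1 ChIP-seq was done in wild-type cells of each line, with 1 peak list a line. The labels give DMEM with serum for all samples, whereas the methods name several media without tying them to a line. No source says that the 3 libraries of a group came from separate cultures, so the p-values measure only the spread between these libraries, which may be technical.

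Total counts per library ran from 16567606 to 22217009. TWIST1 itself had 797 to 1034 counts in the MDST8 WT libraries and 553 to 1195 in those of the clones, and it was called in TG2_2 and in no other clone (log2 fold change -0.65, standard error 0.07, adjusted p = 2.37e-09, Benjamini-Hochberg, by the quasi-likelihood test of edgeR). These counts measure mRNA and not protein. The paper checked the knockouts by Sanger sequencing at the guide site and by Western blot. In LoVo, TWIST1 counts were 73, 89 and 93 where the label reads TWIST1 shRNA, but 0 in each of the 3 control libraries. TWIST1 thus ran against the labels, and every LoVo direction below follows the labels as they stand. Of 10 colon epithelial markers, LoVo expressed 10 at 1 CPM or more and MDST8 only 2, KRT8 and KRT18, with CDX1 and GPA33 at 0 in all MDST8 libraries, while 5 or 6 of 8 mesenchymal markers were expressed in MDST8 and 2 or 3 in LoVo. No leukocyte or endothelial marker reached 1 CPM. The library labelled TWIST1 shRNA replicate 1 stood apart from the other two of its group, with 10.9% of its counts on mitochondrial genes against 6.24 and 5.47%, and LoVo results are given with and without it where it matters.

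The E proteins were at nearly the same level in WT MDST8 and in the clones. TCF3, which encodes the E12 and E47 proteins, measured 243, 245 and 235 CPM, scaled by TMM factors, in the WT libraries and 199, 208 and 198 in TG3_6. A call needed an absolute log2 fold change above 0.58 besides an adjusted p below 0.05. The libraries of TG3_6 lay below all WT libraries, but the log2 fold change of -0.26 (standard error 0.03) was short of that. Those of TG2_2, TG3_2 and TG3_5 also lay below all WT libraries for TCF3, at -0.12, -0.09 and -0.16, while TG1_1 overlapped WT. TCF12, the E protein also known as HEB, had 164, 160 and 166 CPM in WT and 189, 191 and 197 in TG3_2, its highest group (log2 fold change 0.22, standard error 0.04). TG1_1, TG3_5 and TG3_6 also lay above all WT libraries for TCF12, at 190 ± 6.43, 172 ± 4.02 and 191 ± 2.95 CPM (SD, n = 3), and none of these differences was called. TCF4, the E protein E2-2, ran from 49.3 ± 2.17 CPM in TG3_6 to 64.1 ± 0.763 in TG1_1, with 58.1 ± 1.67 in WT (SD, n = 3). Its log2 fold changes lay between -0.24 and 0.13 in the 5 clones. The libraries of each clone were apart from those of WT, below in TG3_5 and TG3_6 and above in TG1_1, TG2_2 and TG3_2. For these and later separations of libraries, the share of all genes that separate alike was not counted. The exons of TCF4 overlap those of TCF4-AS2 and a processed pseudogene on the other strand, and the counts do not use strand.

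**Figure D1:**
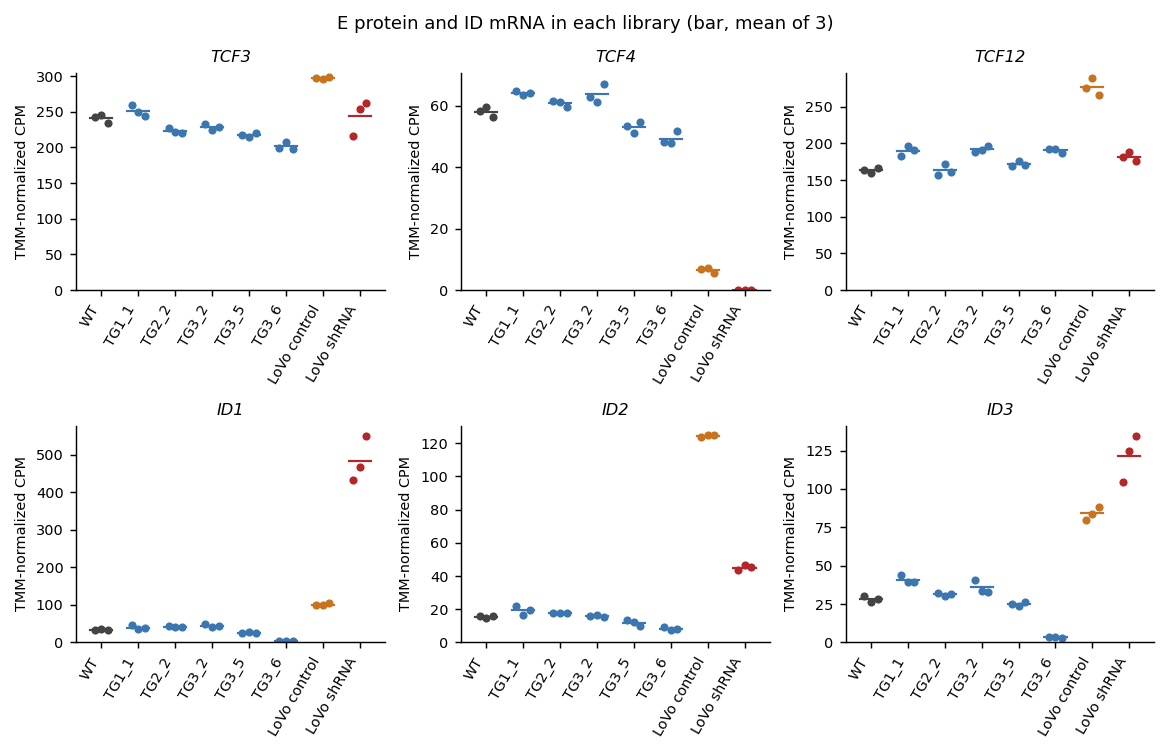
TMM-normalized CPM (vertical axes, from 0) of the 3 E proteins and of ID1, ID2 and ID3 in each library of the 8 groups, with 3 points and a bar at the mean for each group. ID1 and ID3 drop below 5 CPM in the 3 TG3_6 libraries, and TCF4 is at or near 0 in the LoVo libraries labelled TWIST1 shRNA.

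ID1, ID2 and ID3 were lowest in TG3_6, the only clone in which they were called. ID1 measured 33.6, 35.2 and 32.9 CPM in the WT libraries and 3.78, 4.82 and 4.45 in TG3_6. The groups were far apart, and ID1 fell 7.84-fold in TG3_6 (log2 fold change -2.97, standard error 0.10, adjusted p = 1.52e-23 by edgeR's quasi-likelihood test). ID3 behaved alike, with 30, 26.1 and 28.3 CPM in WT and 3.24, 3.84 and 3.17 in TG3_6 (log2 fold change -3.05, standard error 0.11, adjusted p = 2.95e-23 by the same test), a fall of 8.29-fold. ID2 fell less, from 15.7, 14.9 and 16.04 CPM in WT to 9.48, 7.28 and 7.94 in TG3_6 (log2 fold change -0.92, standard error 0.11, adjusted p = 3.67e-09 by the same test). The exons of ID2 overlap those of ID2-AS1 on the other strand. In TG3_6 these 3 members were called of 6 tested, all of them down, where 27% of all 13706 genes tested were called, 15.3% up and 11.7% down.

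In the other clones the ID genes moved less and in different directions. ID3 measured 43.9, 39.4 and 39.4 CPM in TG1_1, all above WT, at a log2 fold change of 0.53 (standard error 0.07), short of a call, which it reached at 0.58 without WT replicate A. ID1 had its highest level in TG3_2, with 48.5, 42.3 and 43.7 CPM (log2 fold change 0.39, standard error 0.07). TG3_5 lay on the other side of WT, with ID1 at 25.9, 26.6 and 24.4 CPM and ID2 at 13.6, 12.4 and 9.88 CPM, log2 fold changes of -0.41 and -0.39. No member was called by edgeR in TG1_1, TG2_2, TG3_2 or TG3_5, where 19.5, 14.7, 17 and 18.5% of all genes tested were called (12, 8.05, 10.9 and 11.2% up and 7.49, 6.64, 6.09 and 7.25% down). DESeq2, voom and limma also called 0 in each of them. At an unadjusted p below 0.05 and any fold, 5 of the 6 tested members differed from WT in TG1_1, 2 in TG2_2, 5 in TG3_2 and 5 in TG3_5. Of all genes, 66.5, 60.2, 64.4 and 64.6% did so at this cut-off (71.3% in TG3_6, where all 6 members did). The members' share was thus below that of all genes in TG2_2 and above it in the other clones, over only 6 members. Their median log2 fold change was 0.20 in TG1_1, 0.10 in TG2_2, 0.17 in TG3_2, -0.17 in TG3_5 and -0.59 in TG3_6, with that of all genes between -0.01 and 0.00.

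**Figure D2:**
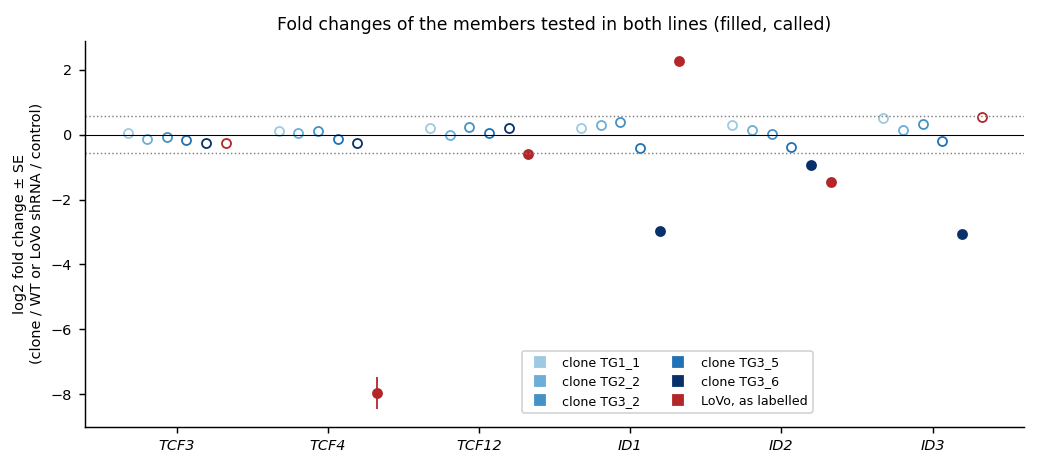
Log2 fold change (vertical axis) with its standard error for the 6 members tested in both lines (horizontal axis), each clone against MDST8 WT and LoVo labelled TWIST1 shRNA against shRNA control. Filled points were called, dotted lines mark a change of 0.58 either way, and the called clone points are the 3 ID genes of TG3_6.

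Levels differed among the 5 clones for all 6 tested members by an F test over the clones, a test that 81% of all genes tested passed at an adjusted p below 0.05. ID1 and ID3 had the largest F values of the members, 357 and 350 (adjusted p = 9.27e-25 and 1.18e-24 by edgeR). The order of ID1 over the MDST8 groups was TG3_2, TG2_2, TG1_1, WT, TG3_5 and TG3_6. The libraries of the first 3 overlapped and every later step separated neighbouring groups completely. ID3 followed the order TG1_1, TG3_2, TG2_2, WT, TG3_5 and TG3_6, with an overlap only between the first pair. For ID2 the order was TG1_1, TG2_2, TG3_2, WT, TG3_5 and TG3_6, with overlaps between TG1_1 and TG2_2 and between TG3_2 and WT. TG3_2, TG3_5 and TG3_6, which share the name TG3 in the labels, were thus at the top, below WT and at the bottom for ID1. Since the share of all genes that separate the groups was not counted, these separations are not read as particular to the members.

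The ID1 and ID3 loci are shown because these genes had the largest log2 fold changes in MDST8 among the 6 members that passed the filter on low counts. ID1 lies at chr20:31605283-31606515 (hg38, plus strand) and ID3 at chr1:23557926-23559501 (minus strand). A listed MDST8 TWIST1 peak, chr1:23559586-23559883, has its summit upstream of the ID3 5' end, at -255 bp (fold enrichment 2.62 over the local background, with a MACS2 p of 0.00131 and q of 0.78). The RefSeq ID3 promoter, GRCh38.p14 chr1:23559452-23559751 on the minus strand, is printed 5' to 3' with the 166 bases inside that peak in capitals:
ID3 promoter: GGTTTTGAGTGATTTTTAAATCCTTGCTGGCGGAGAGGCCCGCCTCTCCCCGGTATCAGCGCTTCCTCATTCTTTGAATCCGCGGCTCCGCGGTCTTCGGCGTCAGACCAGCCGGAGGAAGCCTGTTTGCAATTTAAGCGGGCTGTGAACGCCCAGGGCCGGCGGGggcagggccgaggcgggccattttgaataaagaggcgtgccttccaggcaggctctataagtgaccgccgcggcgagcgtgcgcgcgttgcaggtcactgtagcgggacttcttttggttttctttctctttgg
Searched on both strands, this window held no CANNTG, hence no CATCTG, an E-box form associated with TWIST1 dimers, and no GGCGCC, a motif of BMP-activated SMADs, and neither did the RefSeq window of ID1. Over 35116 RefSeq promoter windows of 300 bases, CANNTG occurred in 68.7%, CATCTG in 14.7% and GGCGCC in 19.2%. Near ID1 an MDST8 peak at chr20:31608213-31608470, beyond the end of the gene, had a fold enrichment of 2.82 and a p of 0.000317 (q of 0.544). Downstream of ID3 the peak chr1:23556188-23556651 (fold enrichment 2.34, p of 0.0055) held the only CATCTG within 50 bp of a summit among the members' promoter peaks. The 101 bases around both summits are given on the plus strand, with every CANNTG in capitals:
ID1, MDST8, chr20:31608297-31608397: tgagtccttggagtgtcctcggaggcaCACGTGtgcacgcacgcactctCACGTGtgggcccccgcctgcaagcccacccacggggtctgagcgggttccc
ID3, MDST8, chr1:23556232-23556332: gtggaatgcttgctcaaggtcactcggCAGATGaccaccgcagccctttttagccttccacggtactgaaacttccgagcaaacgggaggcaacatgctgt
The ID1 window holds CACGTG at 2 positions, and the CAGATG of the ID3 window reads CATCTG on the other strand. LoVo had no listed peak within 3000 bp of the 5' end of ID1 or ID3.

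The summed ID to E protein mRNA ratio describes how the members balanced. It was taken per library from CPM per kb of annotated exon, which puts genes of different length on a single scale, and carries no test. WT libraries had ratios of 0.945, 0.917 and 0.939. TG3_6 had 0.178, 0.179 and 0.177, the lowest of the 8 groups. TG1_1, TG2_2 and TG3_2 averaged 1.1, 1.16 and 1.15, and TG3_5 averaged 0.791. LoVo was higher throughout, at 2.56 ± 0.097 in shRNA control and 8.58 ± 0.653 in the libraries labelled TWIST1 shRNA (SD, n = 3). Within WT MDST8, TCF3 had the highest level per length at 37.9 ± 0.882 CPM per kb, followed by ID1 at 27.5 ± 0.921, ID3 at 18.8 ± 1.3 and TCF12 at 17.3 ± 0.34, while ID2 had 7.03 ± 0.265 and TCF4 1.99 ± 0.0571 (SD, n = 3). The annotated exons of TCF4 add up to 29166 bp over its many transcripts, so its level per kb is a low estimate. TCF3 and TCF12 have 18 and 25 transcript starts, against 2, 3 and 3 for ID1, ID2 and ID3. Their levels per kb may thus be low as well, and the order of the members and the ratio depend on this division. Not divided by length, the WT ratio averaged 0.168.

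**Figure D3:**
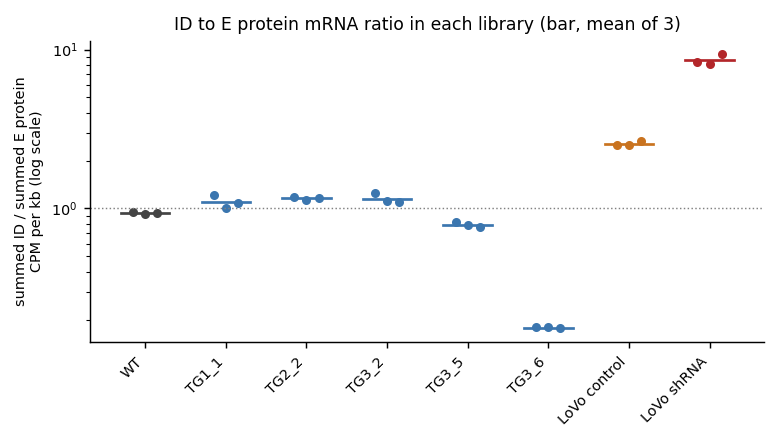
Ratio of summed ID1 to ID4 over summed TCF3, TCF4 and TCF12 CPM per kb (log axis) in each library, with a bar at the mean of 3. The 3 TG3_6 libraries sit near 0.18, those of the other MDST8 groups between 0.764 and 1.25, and those of LoVo at 2.5 or more.

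The remaining members were sparse, and raw counts are given for them. ID4 had 0 counts in all 18 MDST8 libraries, against 44, 44 and 26 in LoVo shRNA control and 30, 43 and 32 in the libraries labelled TWIST1 shRNA. ID4 was thus at least 14.4-fold higher in LoVo shRNA control than in MDST8 WT, taken against a floor of 3 counts per library, and did not pass the test between the LoVo groups (log2 fold change -0.11, standard error 0.30). HAND1, a bHLH factor of heart and trophoblast development, also had 0 counts in all MDST8 libraries, against 766, 927 and 756 in LoVo shRNA control. TWIST2, the closest paralogue of TWIST1, had 4 counts in replicate A of TG2_2 and 0 in the other 23 libraries. Zero counts and floors speak for detection at this depth and cover counting error only.

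HAND2, a related factor of heart and limb development, was found only in MDST8. The WT libraries held 23, 9 and 37 counts, TG3_2 held 29, 47 and 22, and TG3_6 held 19, 20 and 19. TG1_1 had 10, 3 and 8 counts, TG3_5 had 4, 0 and 3, and TG2_2 had 2, 1 and 0. The libraries of TG2_2 and TG3_5 lay below all WT libraries, a separation for which an exact two-sided permutation test on log2(CPM + 0.5) gives p = 0.1, the smallest that 3 against 3 allow. By the ratio of summed counts WT was 23.1-fold higher than TG2_2 (95% interval 7.59 to 115, for counting error only). The WT counts themselves spread beyond counting error, and without single libraries the ratio ran from 15.5 to 48.5, the highest being that without TG2_2 replicate A. HAND2 failed the filter on low counts and was therefore outside the main test. In fits with edgeR's filterByExpr, examined for HAND2 after its counts were seen, its log2 fold change was -1.71 in TG1_1, -4.38 in TG2_2 and -3.17 in TG3_5. It was 0.43 in TG3_2 and -0.37 in TG3_6. That filter keeps a gene for its counts in the groups where it is high, so no call is drawn from these values. Exons of HAND2 and the antisense HAND2-AS1 overlap, and without strand their reads cannot be told apart.

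**Figure D4:**
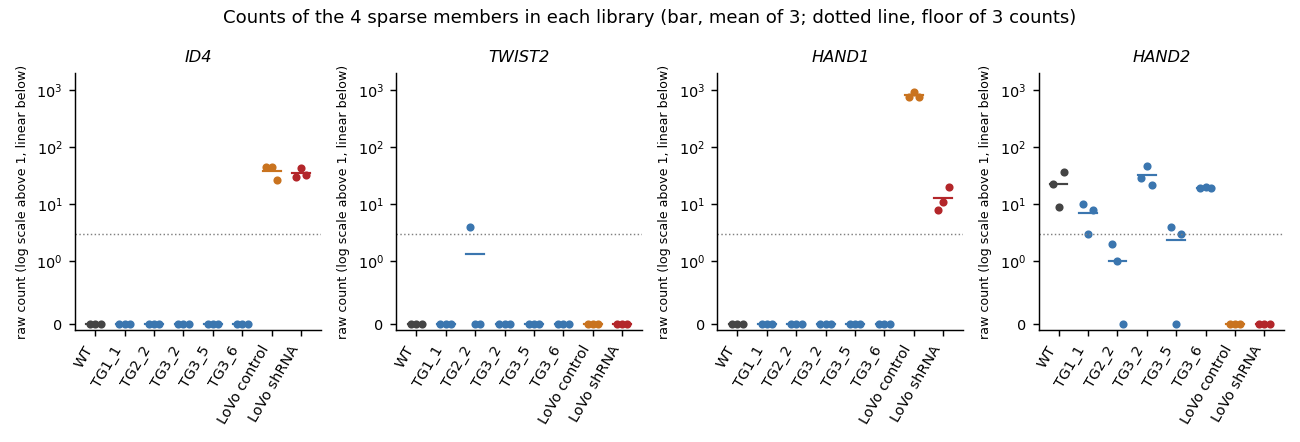
Raw counts of ID4, TWIST2, HAND1 and HAND2 in each library (vertical axis logarithmic above 1 and linear below), with a bar at the mean of 3 and a dotted line at the floor of 3 counts. ID4 and HAND1 are found only in LoVo and HAND2 only in MDST8, with TG2_2 and TG3_5 lowest among its groups.

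In LoVo, 8 members were tested between the libraries labelled TWIST1 shRNA and shRNA control, but HAND1 and TCF4 passed the filter on low counts only through the shRNA control libraries and so had to differ. Of the 6 that passed it in both groups, 3 were called (ID1, ID2 and TCF12), where 52.7% of all 14270 genes tested were called. ID1 measured 99.1, 99.0 and 105 CPM in shRNA control and 432, 469 and 551 in the libraries labelled TWIST1 shRNA. It was 4.85-fold higher in the latter (log2 fold change 2.28, standard error 0.08, adjusted p = 1.16e-13 by edgeR's quasi-likelihood test), the only member called up, in a comparison where 26.6% of all genes were called up and 26.1% down. ID2 went the other way, from 124, 125 and 125 CPM to 43.5, 46.5 and 45.2 (log2 fold change -1.45, standard error 0.06, adjusted p = 1.24e-12 by the same test). ID3 had 79.8, 83.9 and 88.3 CPM against 105, 125 and 135, groups that did not overlap, at a log2 fold change of 0.55 just short of a call. Without the library labelled TWIST1 shRNA replicate 1 the ID3 value was 0.67 and was called.

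TCF4 was close to absent from the LoVo libraries labelled TWIST1 shRNA, with 0, 1 and 0 counts against 109, 141 and 97 in shRNA control. The ratio of summed counts was 350 (95% interval 62.4 to 13856, counting error only). HAND1 had 48.2, 48.1 and 44.4 CPM in shRNA control and 0.43, 0.664 and 1.15 in the libraries labelled TWIST1 shRNA, a difference of 61.9-fold (log2 fold change -5.95, standard error 0.17). No p is given for these genes, since the filter admitted them through the group in which they were high. TCF12 had 276, 289 and 266 CPM in shRNA control and 181, 189 and 177 in the libraries labelled TWIST1 shRNA, a log2 fold change of -0.59 (standard error 0.06). The groups were well apart, but the value sits at the threshold and was -0.55 and not called without shRNA control replicate B or without replicate 1 or 3 of the libraries labelled TWIST1 shRNA. TCF3 was at 298 ± 1.34 and 244 ± 24.8 CPM (SD, n = 3) and was not called (log2 fold change -0.27, or -0.16 without TWIST1 shRNA replicate 1). In the libraries labelled TWIST1 shRNA the summed level of the 10 colon epithelial markers was 4229 CPM against 7838 in shRNA control. All 10 were lower. From shRNA control, KRT8 (4576 to 2659 CPM) and KRT18 (1912 to 998) carried most of that sum. CDX2 (269 to 32.4 CPM) and KRT20 (49.3 to 2.56) fell further than EPCAM (603 to 330) and CDH1 (280 to 193). The part of the lower markers in the differences of the members was not tested. In bulk RNA, fewer cells of a type and less RNA per cell cannot be told apart.

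Set side by side, WT MDST8 and LoVo shRNA control differed in 5 of 6 members tested, where 64.6% of all 14185 genes tested over both lines were called (34% higher in MDST8 WT and 30.6% lower). TCF4 was 8.71-fold higher in MDST8 WT (log2 difference 3.12, standard error 0.08). ID2 was 8.04-fold, ID3 3.00-fold and ID1 2.99-fold higher in LoVo, and TCF12 1.70-fold. TCF3 differed by only -0.31 on the log2 scale and was not called. Against the LoVo libraries labelled TWIST1 shRNA, 4 of the 6 members were called where 59.6% of all genes were (30.6% higher in MDST8 WT and 29.1% lower), with TCF12 (-0.16) and TCF3 (-0.02) not called and TCF4 counted although it was near 0 in that LoVo group. The line and the laboratory handling of each line cannot be told apart in these contrasts.

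The LoVo effect, as labelled, was tested against the mean effect of the 5 clones in a fit of all libraries. It differed for 5 of 6 members, in a contrast in which 50.7% of all genes were called (26% up and 24.6% down). ID1 differed by 2.75 (standard error 0.10), ID3 by 0.97 (0.10), ID2 by -1.30 (0.10) and TCF12 by -0.75 (0.05) on the log2 scale. TCF4 is also counted among the 5, but it passed the filter on low counts through the groups in which it was high. Its call is therefore not read as a result, and its fitted value depends on the near absence of counts in the LoVo libraries labelled TWIST1 shRNA. For TCF3 the difference of -0.18 was not called. The clone mean takes in TG3_6, whose ID1 and ID3 values lay far from those of the other clones, and the LoVo side follows labels that the TWIST1 counts went against.

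Over the 18 MDST8 libraries, the protein-coding gene closest to ID1 in its pattern was ID3 (Pearson's r of log2 CPM 0.99). For ID3 the second was PRMT1, an arginine methyltransferase (0.96). ID2 was closest to SPDL1 (0.94) and YWHAG (0.92). TCF3 was closest to the cold-inducible RNA-binding protein gene CIRBP (0.93) and to SLIT2 (0.92), TCF4 to CCDC3 (0.94) and the fibrillin gene FBN1 (0.92), and TCF12 to CD59 (0.96) and ITM2B (0.96). These are descriptions over libraries that share clones. Without the TG3_6 libraries, over 15 libraries, ID1 and ID3 had r = 0.75, while ID3 and PRMT1 had r = 0.07. TCF12 and CD59 had r = 0.97 over the same 15 libraries.

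Genes of related pathways were read from 4 lists. Of 24 BMP and SMAD1/5 pathway genes 19 were tested in MDST8, and in TG3_6 7 of them were called up and 3 down (15.3 and 11.7% of all genes), with a list median of 0.31 against 0.00 for all genes. BMP2, a ligand, fell in all 5 clones, from 68.5 ± 4 CPM in WT to between 19.2 and 32.8 (SD, n = 3). BMP4, another ligand, rose in 4 of them, to 155 ± 3.07 CPM in TG3_6 from 54.8 ± 5.68 in WT (SD, n = 3). FST, which encodes the activin and BMP antagonist follistatin, fell in 4 clones, from 14.5 ± 1.01 CPM in WT to between 3.29 and 6.85, and had 17.9 ± 1.05 in TG2_2 (SD, n = 3). Picked out after their values were seen, NOG and CHRD, which encode the BMP antagonists noggin and chordin, rose in TG3_6 (log2 fold changes 1.74 and 0.84), as did SMAD1 (1.19), which fell in TG2_2 (-0.95) and TG3_5 (-0.61). SMAD7, an inhibitory SMAD, fell in TG3_6 (-0.95). In the other clones 3 up and 2 down (TG1_1), 0 and 2 (TG2_2), 4 and 2 (TG3_2) and 1 and 4 (TG3_5) of the 19 were called, where all genes gave 12 and 7.49%, 8.05 and 6.64%, 10.9 and 6.09%, and 11.2 and 7.25%. The list median was 0.23 in TG1_1, 0.07 in TG2_2, 0.30 in TG3_2 and -0.25 in TG3_5, so that of TG3_6 was not particular to this clone. In LoVo, as labelled, 6 of 20 were up and 11 down (26.6 and 26.1% of all genes), among them BMP4, which fell from 858 ± 13.2 to 97.4 ± 3.08 CPM (SD, n = 3), and BMP2, from 31.7 ± 0.889 to 1.47 ± 0.323.

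Among 12 E protein cofactors 8 were tested in MDST8, with 2 called up in TG1_1, 1 up and 1 down in TG2_2, 2 up in TG3_2, 1 up in TG3_5 and 3 up in TG3_6. In the same order of clones, all genes gave 12, 8.05, 10.9, 11.2 and 15.3% up. They gave 7.49, 6.64, 6.09, 7.25 and 11.7% down, and these shares also stand beside the other lists of this paragraph. LDB2, a LIM-domain adaptor of bHLH complexes, rose in all 5 clones from 4.39 ± 0.768 CPM in WT to between 15.3 and 33.3 (SD, n = 3), and had 0 counts in LoVo shRNA control. In LoVo 1 of 8 cofactors was called up and 4 down, where 52.7% of all genes were called in either direction. Of 13 HES, HEY and BHLHE40 type repressors 7 were tested in MDST8, with 2 up in TG1_1, 1 up and 1 down in TG2_2, 2 up in TG3_2, 2 up and 1 down in TG3_5 and 4 up in TG3_6, and in LoVo 2 of 10 were up and 4 down, beside the same 52.7% of all genes and the 14.7 to 27% called in the clones. BHLHE40, a bHLH repressor, rose in 4 clones, from 89.1 ± 0.46 CPM in WT to 163 ± 2.63 in TG2_2 and 160 ± 8.63 in TG3_6 (SD, n = 3). Of 41 other tissue-restricted bHLH genes, TWIST1 among them, only 5 were tested in MDST8, with 1 up and 1 down in TG1_1, TG3_2 and TG3_5, 2 up and 1 down in TG2_2 and 0 up and 1 down in TG3_6, while in LoVo 3 of 6 were up and 2 down (26.6 and 26.1% of all genes). ATOH8 had the largest mean change of these, with 2.49 ± 0.53 CPM in WT, 9.19 ± 0.628 in TG1_1 and 7.37 ± 0.338 in TG3_2 (SD, n = 3).

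TWIST1 ChIP-seq peaks near the members were mostly weak. The lists hold 338877 peaks for MDST8 and 333621 for LoVo at an unadjusted p below 0.05, of which 1075 and 1550 reach a q of 0.05. A listed peak lay within 3000 bp of the 5' end of 8 of the 10 members in MDST8 (not ID2 or ID4), where 70.8% of protein-coding genes had one. In LoVo it was 2 of 10, TCF3 and HAND1, against 57.3% of protein-coding genes. There were 15 such MDST8 peaks and 3 LoVo peaks. None overlapped a peak of the other line, and none reached a q of 0.05. A CATCTG within 50 bp of the summit was found in 1 of the 15 and 0 of the 3, and over all peaks in 7.46 and 7.37%.

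Among the promoter peaks, the lowest p in MDST8 was at TCF12, whose gene spans chr15:56918623-57299281. This peak, chr15:56916931-56917256, had its summit upstream, at -1534 bp from the 5' end (fold enrichment 3.65, p of 3.56e-05, q of 0.274). At TCF3 a peak with its summit at -365 bp, chr19:1652826-1653097, had a p of 0.000667. LoVo also had a peak with summit 1619 bp into TCF3, chr19:1650632-1651085 (p of 0.000639). At HAND1 the LoVo peak chr5:154475248-154476175 (fold enrichment 2.97, p of 0.000512) lay over the non-coding part of an exon. Peaks with a p of 0.000855 were listed in MDST8 upstream of HAND2 (chr4:173532845-173533118) and of TWIST2 (chr2:238846091-238846621), genes with few or no counts there. The summit windows of these peaks at the E protein genes, the partners of TWIST1, on the plus strand and with CANNTG in capitals, were:
TCF12, MDST8, chr15:56917039-56917139: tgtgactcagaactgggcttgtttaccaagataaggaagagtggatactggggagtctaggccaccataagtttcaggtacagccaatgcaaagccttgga
TCF3, MDST8, chr19:1652930-1653030: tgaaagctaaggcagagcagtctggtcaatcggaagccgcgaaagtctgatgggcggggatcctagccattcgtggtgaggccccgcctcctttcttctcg
TCF3, LoVo, chr19:1650946-1651046: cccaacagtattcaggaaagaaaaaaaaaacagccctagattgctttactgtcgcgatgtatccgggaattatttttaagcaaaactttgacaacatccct
None of the E protein windows holds a CANNTG, while that of the LoVo HAND1 peak, not printed, holds 1.

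Within 50 kb of the members' 5' ends there were 178 MDST8 and 105 LoVo peaks. Protein-coding genes had a median of 15 (quartiles 11 and 20) in MDST8 and 13 (10 and 15) in LoVo. ID1, named because it had the most in MDST8, had 29 there and 6 in LoVo. In MDST8, TCF3 (25) and HAND1 (24) also lay above the upper quartile, and ID2 (10) and ID4 (8) below the lower. In LoVo the members ran from 4 (TCF4) to 19 (TCF3). Only 4 of the 178 MDST8 and 105 LoVo peaks reached a q of 0.05, and they are described here after their values were seen. In MDST8 chr20:31569771-31570296 lay upstream of ID1 at -35369 bp, inside HM13 (fold enrichment 4.08, q = 0.0125) and overlapped a LoVo peak. In the same line chr6:19804332-19804968 lay at -32662 bp from ID4 (fold enrichment 4.36, q = 0.0344), although ID4 had no counts in MDST8. The third, chr5:154454589-154455176, lay 23239 bp past the HAND1 5' end inside SAP30L (fold enrichment 4.44, q = 0.0187). LoVo had chr19:1694506-1694816, at -42057 bp from TCF3 (fold enrichment 4.22, q = 0.0471). The summit windows of the peaks near ID1, ID4 and TCF3, printed in the same way because these are among the strongest peaks near the members, hold 1 CANNTG each and no CATCTG:
ID1, MDST8, chr20:31569864-31569964: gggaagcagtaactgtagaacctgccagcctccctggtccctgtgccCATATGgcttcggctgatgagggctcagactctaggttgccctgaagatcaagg
ID4, MDST8, chr6:19804658-19804758: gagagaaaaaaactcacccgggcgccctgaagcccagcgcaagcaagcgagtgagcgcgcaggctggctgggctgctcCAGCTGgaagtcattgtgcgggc
TCF3, LoVo, chr19:1694622-1694722: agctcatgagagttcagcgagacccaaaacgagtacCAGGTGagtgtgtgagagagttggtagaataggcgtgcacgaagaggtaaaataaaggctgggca

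**Figure D5:**
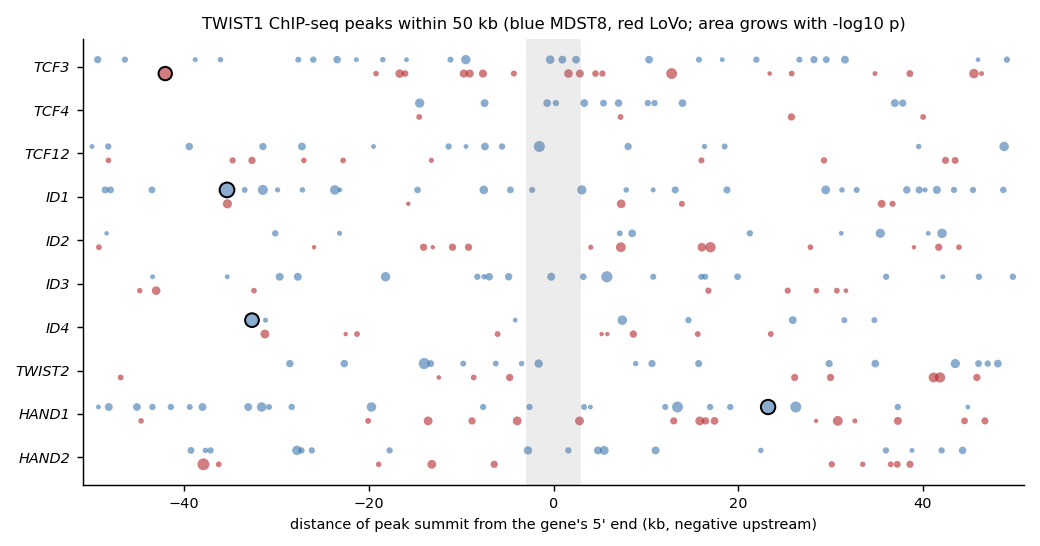
Distance of each listed TWIST1 peak summit from the 5' end of the member (horizontal axis in kb, negative upstream) within 50 kb, MDST8 in blue and LoVo in red, with larger points for lower p. Rings mark the 4 peaks that reached a q of 0.05, all of them outside the shaded 3000 bp on either side of the 5' ends.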

How the data were processed

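RNA-seq reads were trimmed with Trim Galore 0.6.6, aligned to hg38 with HISAT2 2.1.0 and counted on GENCODE v43 genes with featureCounts 2.0.0 without strand, versions being those of the submitters' processing notes and the file headers. The deposited counts of 62703 genes have no normalization, and the deposited exon lengths in bp, another value of these tables, served for CPM per kb. For ChIP-seq the authors aligned reads with Bowtie2 2.4.5 and called peaks with MACS2 2.2.7.1 at a p-value below 0.05. They deposited, per peak, the fold enrichment as a ratio, p- and q-values as -log10, an integer score and the summit offset in bp. The score was not used. Whether the input served as MACS2 control is not given in the sources used here. Positions were read as hg38, whose chromosome ends bound every peak.

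The 10 genes, the 4 related lists and the tests were chosen with earlier results of these data known. Symbols came from GENCODE v44, which matched 62639 identifiers without regard to version. Genes with a geometric mean of RPM + 1, minus 1, of at least 1 were tested: 13706 in MDST8, 14270 in LoVo and 14185 over both. In MDST8 and in the joint fit 6 members passed, and 8 in LoVo. Counts were compared with edgeR 4.0.16 (R 4.3.3) by the quasi-likelihood test with TMM factors, in a fit of the 18 MDST8 libraries, of the 6 LoVo libraries, or of all 24. Calls required both a log2 fold change beyond 0.58 either way and an adjusted p (Benjamini-Hochberg) below 0.05, and the F test over clones only the latter. Exact two-sided permutation tests used log2(CPM + 0.5), where 3 against 3 cannot go below 0.1. Groups at 0 were set against a floor of 3 counts per library. Ratios of sums have 95% exact intervals.

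Promoter peaks were those that reached to within 3000 bp of a gene's 5' end. Sequences came from hg38 and from RefSeq promoter windows of GRCh38.p14, which held all 10 members. Tests were checked on simulated counts and intervals. The genes named from the 4 lists were those called the same way in at least 4 clones or, where a list had none, that with the largest mean change, and the genes most like a member were the 2 with the highest r. Items withheld for evaluation are not reported here. Peaks named had p of at most 0.001 or a CATCTG near the summit, others being named as chosen later. Alternatives were DESeq2 1.42.0, limma 3.58.1 with voom or on log2(count + 1), other scaling factors and filters, other promoter windows and peak thresholds, and fits that left out a library.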

Additional observations from a re-analysis of the deposited data

Results flagged for a closer look

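Differences between clones, or between the lines in the same contrast, were found for members by a test of the difference itself, and edgeR's quasi-likelihood test gives each adjusted p over all genes tested. Among the 5 clones, the F value was 357 for ID1, 350 for ID3, 41.5 for ID2, 23.9 for TCF4, 22.4 for TCF3 and 16.4 for TCF12, in a test that 81% of all genes passed. The adjusted p ran from 9.27e-25 for ID1 to 4.4e-07 for TCF12. The LoVo effect, as labelled, minus the mean effect of the clones was 2.75 for ID1, 0.97 for ID3, -1.30 for ID2, -0.75 for TCF12 and -8.02 for TCF4 on the log2 scale, where 50.7% of all genes were called. The TCF4 value rests on a LoVo group with 1 count in all, and the gene passed the filter on low counts only through other groups. It is therefore not read as a test result. TWIST1 counts in LoVo went against the labels, and the part of that in these differences was not tested.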

How the results depend on the processing

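The calls of ID1, ID2 and ID3 in TG3_6 held under every alternative run. One member, HAND2, entered the fits with no filter and with filterByExpr, where the count of members called was 1 in place of 0 in TG1_1, in TG2_2 and in TG3_5. These HAND2 calls are not read as results, since the gene failed the planned filter and filterByExpr keeps it for the groups where it is high. Leaving out libraries gave 0 to 1 members called in TG1_1. TCF12 in TG2_2 (-0.01) turned to 0.0069 with limma on log2(count + 1), 0.012 with upper-quartile factors and 0.00081 with only the 2 groups fitted, and ran from -0.050 to 0.019 without single libraries. Leaving out libraries also moved ID2 in TG3_2 between -0.0056 and 0.057, ID4 in LoVo between -0.33 and 0.071, and TCF3 in WT against LoVo labelled TWIST1 shRNA between -0.11 and 0.023; none of these 4 was called. In LoVo, TCF12 was not called with DESeq2 (-0.57), RLE factors (-0.57) or upper-quartile factors (-0.49), and ID3 was called with the last (0.64). The cause was not tested.

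Not divided by length, the ID to E protein ratio was 0.168 in WT, 0.197, 0.203, 0.199, 0.141 and 0.0362 in TG1_1 to TG3_6, 0.537 in LoVo shRNA control and 1.53 in LoVo labelled TWIST1 shRNA. Without TCF4 it was 0.967 in WT, 1.202 in TG2_2, 0.819 in TG3_5 and 0.184 in TG3_6. Members with a promoter peak numbered 3 in MDST8 and 0 in LoVo within 1000 bp, 5 in LoVo within 5000 bp or at any transcript start, 5 in MDST8 at a p of at most 0.001, and 0 in both at a q of at most 0.05.

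Replicate letters did not pair libraries: 45 correlations of same-letter deviations ran from -0.131 to 0.108, with 1 above 0.1. A fit with a replicate block left 42 of 42 results the same, with 2665 genes called in TG1_1 in place of 2670. For a single gene this means the same direction and call, and for a count of genes called a similar number. The LoVo groups share no replicate numbers. With 1 ChIP-seq library a line, peaks have no replicate check.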
